A study of Mus musculus with 6 samples.

Results

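miR-128 is among the most abundant microRNAs (miRNAs) of the mouse brain, and this account follows its 3 strands in Argonaute at a young and an old age. The members were the labels mmu-miR-128-3p, mmu-miR-128-1-5p and mmu-miR-128-2-5p (written without the species prefix from here on), found by splitting each deposited miRNA annotation into its single names and adding up all read sequences with that name. They are 3 of 1101 miRNA labels and hold 811 of 143934 read sequences. Small RNAs bound to Argonaute (Ago1-4) were pulled down with a peptide of GW182 and sequenced (Ago-RP-Seq), from cortex and hippocampus combined of male C57BL/6J mice. There were 3 libraries of mice aged 2 months (2M) and 3 of mice aged 18 months (18M). No treatment or transgene is stated for them, and the comparison asks how the content of the RNA-induced silencing complex (RISC) differs between young and old brain. Levels are given in RPM, the reads of a label scaled to a common library total.

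The miRNA is encoded by a pair of gene copies. Each lies inside a protein-coding gene on the same strand: Mir128-1 in R3hdm1 and Mir128-2 in Arpp21, which encodes a phosphoprotein enriched in neurons. Each hairpin precursor is cut into a 3p and a 5p strand, of which Argonaute mostly keeps one. The 3p strand is identical for the copies, so its reads cannot be assigned to a gene, whereas each 5p strand is made by a single copy. In the adult brain miR-128 is found above all in neurons, and mice that lack the Arpp21 copy become hyperactive and develop fatal seizures. As bulk tissue was used, fewer cells of a type and less RNA per cell cannot be told apart.

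In GRCm38, Mir128-1 is annotated at chr1:128202361-128202430 on the plus strand, within R3hdm1 (chr1:128103301-128237736), and Mir128-2 at chr9:112118636-112118711 on the minus strand, within Arpp21 (chr9:112065091-112235938). In the GENCODE annotation 2 of 16 R3hdm1 transcripts spanned the first hairpin and 9 of 31 Arpp21 transcripts spanned the second. None of the spanning transcripts overlapped a hairpin with an exon, so both hairpins are intronic.

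The mature sequences from RefSeq (GRCm38.p6) are shown first because the results turn on what they share and where they part. Capitals mark bases 2 to 8, the stretch that pairs with target messages.
miR-128-3p: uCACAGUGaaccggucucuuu
miR-128-1-5p: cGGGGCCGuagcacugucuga
miR-128-2-5p: gGGGGCCGaugcacuguaagaga
The 5p strands share bases 2 to 8 and differ at 5 of the first 21 positions, counted from the 5′ end (C1G, U9A, A10U, C18A and U19A, with the base of miR-128-1-5p first). A read of either 5p strand is therefore distinct from the other copy along its length, while its 6mer seed (positions 2 to 7, GGGGCC) is the same.

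The 3p strand can be told apart only where a read runs on into the precursor. The next lines show the end of each hairpin, with the shared 3p strand in lower case and the flanking hairpin bases in capitals.
Mir128-1: UUCucacagugaaccggucucuuuUUCAGC
Mir128-2: GUCucacagugaaccggucucuuuCCCUAC
A 22nd base of U can thus be copied from the R3hdm1 copy and one of C from the Arpp21 copy, but U and A can also be added to a finished miRNA by nucleotidyl transferases, so the base is not proof of origin.

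miR-128-3p, the guide strand, was loaded at a high level at both ages and did not pass the test for a difference. Its level was 29260, 46474 and 52555 RPM in 2M replicates 1, 2 and 3, and 40492, 45386 and 44752 RPM in 18M replicates 1, 2 and 3. The young libraries included both the lowest and the highest of the 6 values, and the old libraries lay between them. The mean was 42763 ± 12083 RPM in the young and 43543 ± 2662 RPM in the old group (SD, n = 3 each). On the scale log2(RPM + 1), limma gave a change of 0.07 ± 0.22 (SE), with a 95% interval of -0.46 to 0.59 and an adjusted p of 0.899 across 474 miRNA labels. Without 2M replicate 1, the library with the lowest level, the estimate turned to -0.18 (limma, adjusted p = 0.462).

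The 3p strand took 3.05% to 5.46% of all reads with a miRNA label, and by mean RPM it ranked 2 of all labels. Within single libraries it ranked 5, 2 and 2 at 2M and 5, 4 and 3 at 18M. Above it by mean stood miR-124-3p, the classic neuronal miRNA, with a mean of 117594 RPM and a higher value in 6 of 6 libraries. The next label below was miR-26a-5p at 42851 ± 4859 RPM (SD over 6 libraries). It was higher than miR-128-3p in 3 of 6 libraries, so the order of these neighbours changed between libraries. Their difference was not tested.

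The 5p strands were scarce. miR-128-1-5p, from the R3hdm1 copy, was at 27.2, 23.6 and 27.2 RPM in the 2M libraries and at 22.7, 27.2 and 30.0 RPM in the 18M libraries. These ranges overlapped, with means of 26.0 ± 2.08 and 26.6 ± 3.68 RPM. The log2 fold change was 0.03 ± 0.14 (SE), with a 95% interval of -0.32 to 0.37 (limma, adjusted p = 0.929).

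miR-128-2-5p, from the Arpp21 copy, was at 31.7, 28.2 and 27.0 RPM in the 2M libraries and at 20.5, 18.9 and 22.5 RPM in the 18M libraries. All 3 old libraries lay below all 3 young ones, with means of 29.0 ± 2.47 at 2M and 20.7 ± 1.82 RPM at 18M. The log2 fold change was -0.47 ± 0.13 (SE), with a 95% interval of -0.77 to -0.17, an unadjusted p of 0.00846 and an adjusted p of 0.106 with limma. The difference thus did not pass the threshold of 0.05 after adjustment over all labels. Groups that did not overlap, with the lower values at 18M, were found for 19.2% of the 474 labels, 17.9% had an unadjusted p under 0.05 in either direction, and 4.85% an adjusted one. The exact two-sided permutation test gave p = 0.1 for this strand, the smallest value that 3 against 3 libraries allow.

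The 5p strands and the labels with neighbouring levels also changed order between libraries, and their differences were not tested. miR-448-5p and miR-10a-5p stood next above and below miR-128-1-5p, with 3 and 2 of 6 libraries above it. miR-499-5p and miR-351-5p stood next above and below miR-128-2-5p, with 4 and 3 of 6 libraries above it.

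**Figure D1:**
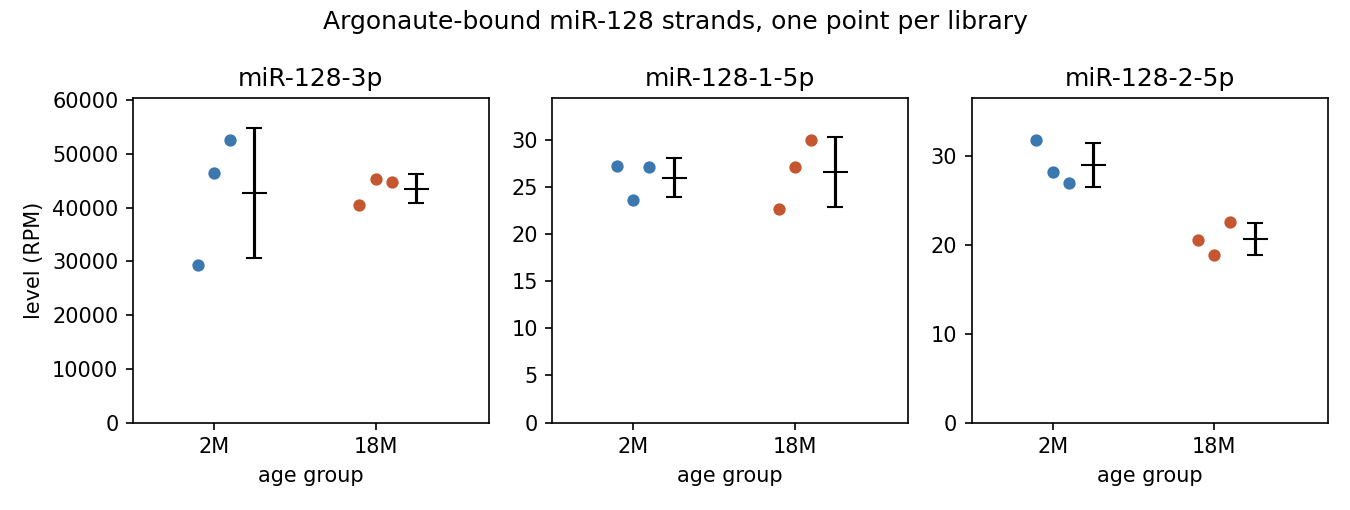
Level in RPM (linear axis from 0, one panel per strand) of the miR-128 strands in each library, with points for libraries and a bar for the mean ± SD of 3. The 3p strand spread from 29260 to 52555 RPM within the 2M group, while the 18M values of miR-128-2-5p (18.9 to 22.5 RPM) lay below its 2M values (27.0 to 31.7 RPM).

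The 5p reads were then used to set the 5p strands of the gene copies against each other within a library, where depth and scaling cancel. They are the strands that Argonaute mostly does not keep. How often each hairpin's 5p strand is kept was not measured, so the ratio need not equal the output of the copies. The ratio of miR-128-1-5p to miR-128-2-5p was 0.859, 0.837 and 1.01 in the 2M libraries and 1.10, 1.44 and 1.33 in the 18M libraries. The Arpp21 strand was thus ahead or level in the young libraries and the R3hdm1 strand was ahead in the old ones, with no overlap between the ages.

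Expressed as a share of the 5p reads, the R3hdm1 copy gave 46.2% (Wilson 95% interval 43.4% to 49.0%, from 1238 reads), 45.6% (42.9% to 48.3%, 1299 reads) and 50.2% (47.3% to 53.1%, 1136 reads) in 2M replicates 1, 2 and 3. In 18M replicates 1, 2 and 3 it gave 52.5% (49.1% to 55.8%, 833 reads), 59.0% (56.0% to 61.9%, 1080 reads) and 57.1% (54.2% to 59.9%, 1149 reads). The intervals of 2M replicate 3 and 18M replicate 1 overlapped, whereas those of every other pairing of a young and an old library did not. These intervals cover counting error only and treat each read as a separate molecule. Copies made by amplification would make them too narrow, and the sources used here do not state whether molecular identifiers were used.

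The log2 copy ratio was -0.16 ± 0.14 at 2M and 0.36 ± 0.20 at 18M (SD, n = 3). The change of 0.51 ± 0.14 (SE) corresponds to a ratio 1.43 times as high at 18M, with a 95% interval of 0.17 to 0.85 on the log2 scale. limma gave an unadjusted p of 0.00985 and an adjusted p of 0.0591 over 12 pairs of strands of two-copy miRNAs, miR-128 included, so the call was missed. It was made when 2M replicate 3 (log2 change 0.60, limma adjusted p = 0.0381) or 18M replicate 1 (0.62, limma adjusted p = 0.0394) was left out, the libraries whose ratios lay closest to the other age. Removing either of those widens the gap by construction. Without 2M replicate 1 or 2, the limma adjusted p was 0.124 or 0.145. Without 18M replicate 2 or 3, it was 0.199 or 0.235. The exact permutation test gave the smallest possible p of 0.1.

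**Figure D2:**
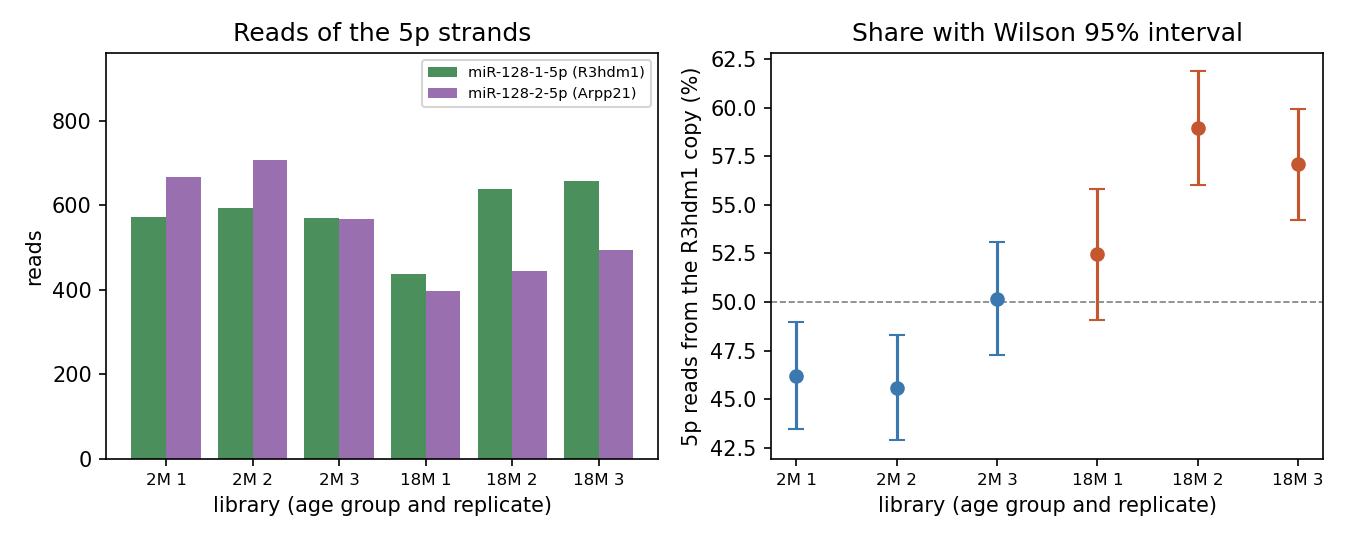
Left, reads of miR-128-1-5p (R3hdm1 copy) and miR-128-2-5p (Arpp21 copy) in each library, on a linear axis from 0. Right, percent of 5p reads from the R3hdm1 copy with its Wilson 95% interval, blue for 2M and red for 18M, with a dashed line at equal shares. The shares ran from 45.6% to 50.2% at 2M and from 52.5% to 59.0% at 18M.

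The same measure in other miRNAs with numbered gene copies gives the background. Among the 12 pairs, ratios that did not overlap between ages were found for 33.3%, and 8.33% had an adjusted p under 0.05. By the size of the log2 change, miR-128 ranked 4 of 12. The copy ratio fell with an adjusted p of 0.0323 for miR-218-1-3p over miR-218-2-3p, from -0.68 ± 0.53 to -2.05 ± 0.26 (log2, SD, limma). The log2 ratio of miR-129-1-3p to miR-129-2-3p was -0.81 ± 0.17 at 2M and -1.23 ± 0.19 at 18M (limma, adjusted p = 0.0803). That of miR-29b-1-5p to miR-29b-2-5p was 0.15 ± 0.07 and -0.15 ± 0.07 (limma, adjusted p = 0.0696). Among pairs without overlap, copy 1 gained in miR-128 (8.33% of the 12 pairs), while the other pairs named moved toward copy 2. Pairs with overlap moved either way. The largest such changes were 0.72 for miR-16-1-3p over miR-16-2-3p and -0.66 for let-7f-1-3p over let-7f-2-3p (log2, limma, adjusted p of 0.180 and 0.179). Copy numbers are names, so a sign shared or not shared between pairs has no meaning of its own.

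**Figure D3:**
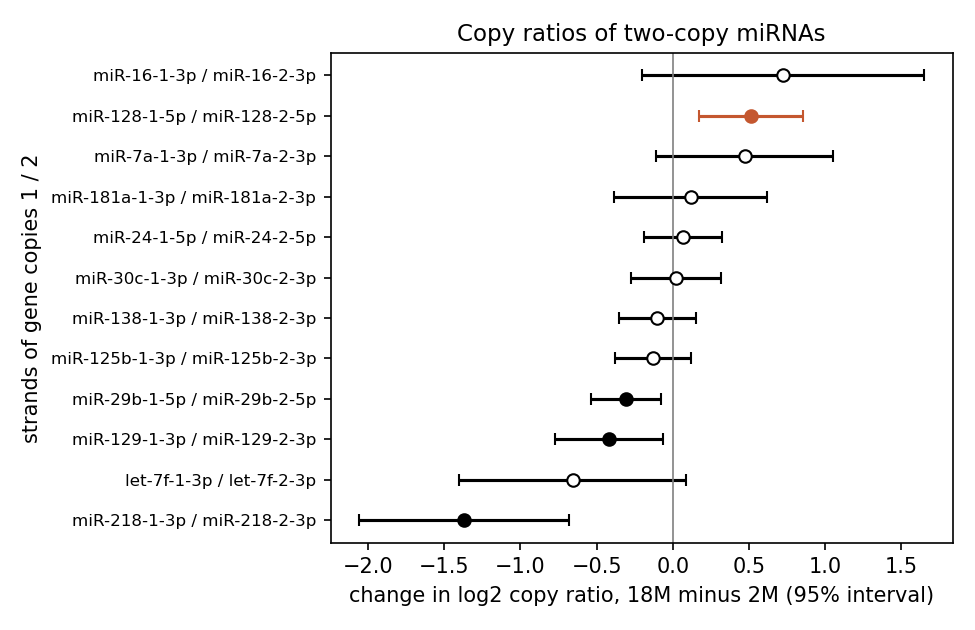
Change in the log2 ratio of copy 1 to copy 2 strands from 2M to 18M for 12 two-copy pairs, with 95% intervals from limma. Filled points are pairs whose 3 old and 3 young libraries did not overlap, and miR-128 is in red at 0.51, on the opposite side of 0 from the other filled points.

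Of hairpin families with both strands at a mean of at least 10 RPM, miR-128 was among the most one-sided in Argonaute. The 3p strand outnumbered the summed 5p strands 496, 898 and 971 to 1 in the 2M libraries and 937, 986 and 853 to 1 in the 18M libraries. 2M replicate 1 stood apart, with the lowest 3p level of the 6 libraries. The mean log2 ratio of 5p to 3p was -9.71, against a median size of 3.32 over the 165 families that passed this filter. Of these families, miR-26a alone was more one-sided, at 11.79 in favour of its 5p strand. Families with a strand below the filter were left out and may be more one-sided still.

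The arm ratio did not pass the test between the ages, with log2 means of -9.56 ± 0.53 at 2M and -9.85 ± 0.11 at 18M (SD, n = 3). The change was -0.29 ± 0.28 (SE), with a 95% interval of -0.95 to 0.37 (limma, adjusted p = 0.839). No family was called (0%), while 6.06% of the 165 had an unadjusted p under 0.05. Without 2M replicate 1 the change was 0.02. The summed 5p level was 51.8 to 59.0 RPM at 2M and 43.2 to 52.5 RPM at 18M (exact permutation test, p = 0.2).

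**Figure D4:**
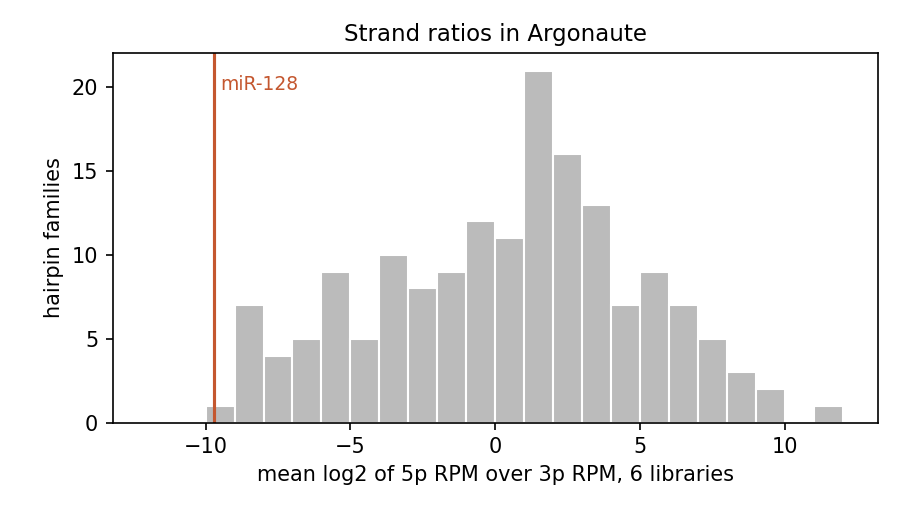
Histogram of the mean log2 ratio of 5p to 3p RPM over 6 libraries for 165 hairpin families, with a red line at miR-128. Only families with both strands at a mean of at least 10 RPM are included. It lies at -9.71, at the 3p end of the distribution.

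The read sequences show how uniform the guide strand was. Of the 774 sequences of miR-128-3p, 52 reached a mean of 10 RPM, and the commonest 4 differ in their 3′ end and share the seed CACAGU. They are shown as deposited, in DNA letters, with bases 2 to 8 in capitals.
miR-128-3p, 21 nt: tCACAGTGaaccggtctcttt
miR-128-3p, 22 nt with a further T: tCACAGTGaaccggtctctttt
miR-128-3p, 20 nt: tCACAGTGaaccggtctctt
miR-128-3p, 22 nt with a further A: tCACAGTGaaccggtctcttta
The 21-nt form, the annotated one, made up 57.9% of the strand, with 24965 ± 6645 RPM in the young and 24995 ± 1749 RPM in the old libraries (mean ± SD, n = 3). The 22-nt form with a T made up 20.5%, at 8425 ± 2787 and 9243 ± 917 RPM. The 20-nt form made up 7.46%, at 3352 ± 783 and 3086 ± 226 RPM. The form with an A, a base that neither hairpin has there, made up 2.90%, at 1211 ± 604 and 1289 ± 206 RPM.

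No member sequence was called between the ages. Among the 53 member sequences that reached 10 RPM on average, limma called 0 at an adjusted p of 0.05 and 0 at an unadjusted one, and edgeR and DESeq2 on the recovered reads also called 0. Over all 3281 read sequences tested, limma called 0.366% after adjustment and 13% before, edgeR called 0.274% and DESeq2 4.62% after adjustment. The log2 fold changes of the 53 ran from -0.31 to 0.39 with a median of 0.04, beside a median of 0.02 over all sequences. Of the 53, 52 are forms of miR-128-3p and are not replicates of each other.

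No length or end measure of the 3p strand passed a test between the ages. The mean read length was 21.22 ± 0.02 nt at 2M and 21.25 ± 0.03 nt at 18M (limma, adjusted p = 0.724), and across 474 labels no length change was called (0%). Reads of 21 nt made up 58.4% to 61.3% of the strand in the 6 libraries. Reads with U at position 22 made up 21.8% ± 1.26 at 2M and 23.6% ± 0.99 at 18M (exact permutation test, p = 0.2), those with C 2.21% ± 0.23 and 2.13% ± 0.24 (exact permutation test, p = 0.7).

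Among reads with U or C at position 22, the bases that continue the R3hdm1 and the Arpp21 hairpin, C made up 10.7%, 8.04% and 8.99% at 2M and 9.50%, 7.22% and 8.17% at 18M. These shares overlapped (exact permutation test, p = 0.5), unlike the shares of the 5p strands. C, the base of the Arpp21 hairpin, was the minority in every library. The R3hdm1 copy gave 45.6% to 59.0% of the 5p reads and the Arpp21 copy the rest. As U can also be added to a finished miRNA, the share of C is not a share of the copies.

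The 5p strands differed from each other in their 3′ ends. Their commonest forms are printed in the same way.
miR-128-1-5p, 21 nt: cGGGGCCGtagcactgtctga
miR-128-1-5p, 23 nt: cGGGGCCGtagcactgtctgaga
miR-128-2-5p, 21 nt: gGGGGCCGatgcactgtaaga
miR-128-2-5p, 23 nt: gGGGGCCGatgcactgtaagaga
The 21-nt form held 69.0% of miR-128-1-5p and 32.4% of miR-128-2-5p, and the 23-nt form 11.4% and 27.0%. The R3hdm1 strand was thus mostly a single length, and the Arpp21 strand was spread over 20 to 23 nt.

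The 23-nt form of miR-128-1-5p was at 3.81, 4.38 and 3.67 RPM at 2M (80, 110 and 77 reads) and at 1.71, 2.13 and 2.24 RPM at 18M (33, 50 and 49 reads). The old values lay below the young ones. With all reads of at least 1 RPM tested, its log2 fold change was -0.71 ± 0.16 (SE), with an adjusted p of 0.191 (limma), so the call was missed. Of the 16220 sequences tested there, 7.94% were lower at 18M without overlap, 10.8% had an unadjusted p under 0.05 and 0.123% were called.

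Under this filter the 21-nt form of miR-128-2-5p was at 9.72, 9.61 and 8.77 RPM at 2M and 6.74, 5.59 and 7.77 RPM at 18M. Its 23-nt form was at 8.95, 8.29 and 7.24 RPM and then at 5.19, 5.24 and 5.25 RPM. The 20-nt form was at 4.29, 3.35 and 3.43 RPM and then at 2.49, 1.79 and 1.92 RPM. Each of these forms was lower in all old libraries, whereas the 22-nt form (2.27 to 3.67 RPM at 2M, 2.30 to 3.20 RPM at 18M) overlapped. Of the 4 sequences of this strand with at least 1 RPM, 3 passed an unadjusted threshold of 0.05 and 0 passed it after adjustment (limma, lowest adjusted p = 0.274). These sequences are forms of a single strand and not replicates of each other.

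Reads of 23 nt made up 14.7%, 18.8% and 14.0% of miR-128-1-5p at 2M and 8.24%, 8.48% and 8.23% at 18M, and reads of 21 nt 68.9%, 60.3% and 70.5% and then 72.3%, 74.7% and 73.5%. The mean length of this strand was 21.38 ± 0.05 nt at 2M and 21.17 ± 0.03 nt at 18M, a change of -0.20 ± 0.04 nt (SE). It missed the threshold (limma, unadjusted p = 0.00109, adjusted p = 0.103), and 12.2% of 474 labels had shorter reads at 18M without overlap. For miR-128-2-5p the mean lengths were 21.57 ± 0.04 and 21.56 ± 0.12 nt (limma, adjusted p = 0.960). Among 18 length, end, seed and copy shares of the members compared with exact permutation tests, 3 did not overlap between ages, each with p = 0.1 and an adjusted p of 0.54.

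**Figure D5:**
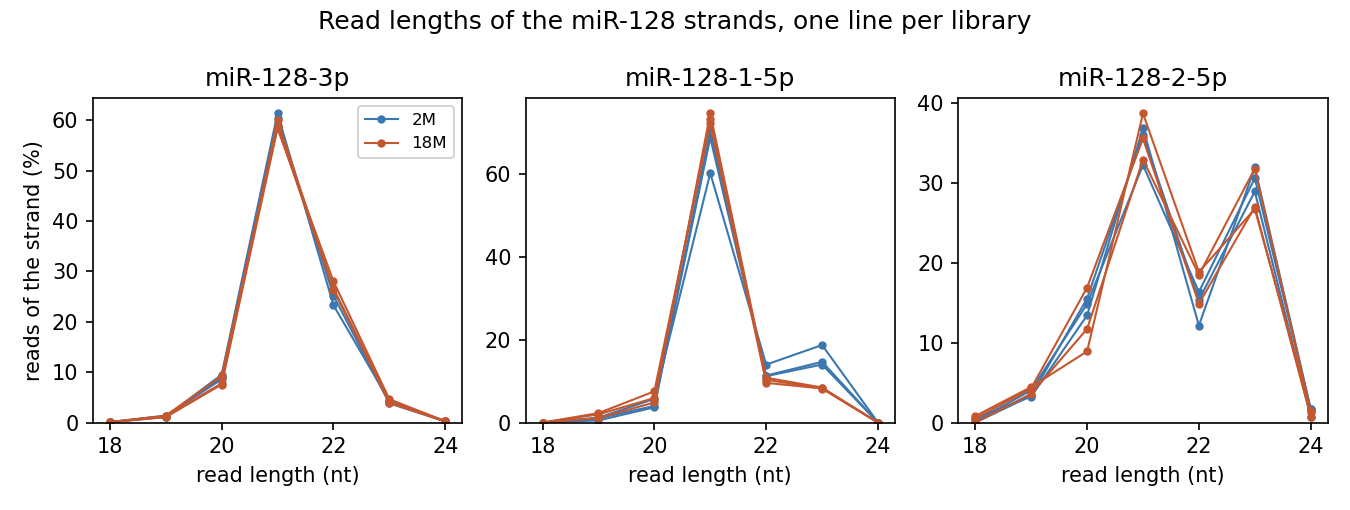
Percent of the reads of each strand by read length from 18 to 24 nt, one line per library, blue for 2M and red for 18M. miR-128-3p and miR-128-1-5p peak at 21 nt, miR-128-2-5p also at 23 nt, and at 23 nt the 18M lines of miR-128-1-5p (8.23% to 8.48%) run below the 2M lines (14.0% to 18.8%).

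A change at the 5′ end moves the seed, and a different base within the seed also counts here as another seed. An example is CGCAGU, in a 21-nt read with the usual start, at a mean of 29.6 RPM. For miR-128-3p 97.4% ± 0.04 of reads had the seed CACAGU at 2M and 97.4% ± 0.14 at 18M. The share with another seed was 2.61% ± 0.04 and 2.57% ± 0.14 (limma, adjusted p = 0.972), below the median of 3.95% over 474 labels. No label was called for this share (0%), and 8.02% had an unadjusted p under 0.05. Reads that start a base later, with the seed ACAGUG, were the larger group of these at 1.65% ± 0.04 and 1.60% ± 0.07.

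On the 5p side, reads with another seed made up 1.09% ± 0.82 and 0.51% ± 0.35 of miR-128-1-5p, and 8.57% ± 0.86 and 9.91% ± 1.38 of miR-128-2-5p, at 2M and 18M (limma between ages, adjusted p of 0.885 and 0.858).

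Reads of miR-128-3p with a further base at the 5′ end have the seed UCACAG, which is the seed of miR-27a-3p and miR-27b-3p. The lines show the overlap, with bases 2 to 8 in capitals.
miR-128-3p read with an earlier start: cTCACAGTgaaccggtctcttt
miR-27a-3p: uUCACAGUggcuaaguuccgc
miR-27b-3p: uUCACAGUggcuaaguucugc
Reads with this seed made up 0.38% ± 0.04 of miR-128-3p at 2M and 0.38% ± 0.05 at 18M. They added 164 RPM to a seed that held 8341 RPM in all, mostly from miR-27b-3p (4764 RPM) and miR-27a-3p. The further base was not always the C that both hairpins have there. The 22-nt form with C had a mean of 49.0 RPM, and those with A, T and G had 19.2, 16.7 and 13.3 RPM. Neither miR-27 strand passed the test between the ages, with log2 fold changes of -0.03 for miR-27b-3p (limma, adjusted p = 0.929) and -0.09 for miR-27a-3p (limma, adjusted p = 0.836).

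The deposited data give each 6mer seed a viability in percent. It is a mean score of 3 mouse cell lines after they were transfected with an siRNA-like RNA carrying that seed. The seeds of the strands of this hairpin differ on that scale. CACAGU, the guide seed, has a viability of 49.5%, and miR-128 supplied 97.8% of its 42966 RPM. UCACAG has 59.0% and ACAGUG 70.2%, so both shifted forms of the 3p strand have higher values than its main one. GGGGCC, the seed of the 5p strands, has 26.4%, and 11.2% of 4032 seeds in the table have a lower value. The 5p strands supplied 80.3% to 94.6% of the GGGGCC reads in each library, out of a mean of 55.8 RPM, and the next label was miR-665-5p at 4.61 RPM. The shifted 5p seed GGGGGC has a lower viability than the main one, at 13.0%. It was carried by 7.48% ± 0.76 of miR-128-2-5p reads at 2M and 9.21% ± 1.29 at 18M (exact permutation test, p = 0.2).

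For each strand, the labels with the most similar levels over the 6 libraries were listed by Pearson's r of log2(RPM + 1), as a description only, since the points share library preparation and depth. They were miR-191-5p (0.954), miR-484 (0.865) and miR-330-3p (0.859) for miR-128-3p. For miR-128-1-5p they were miR-935 (0.906), miR-770-3p (0.887) and miR-744-3p (0.855). For miR-128-2-5p they were miR-17-3p (0.987), miR-467d-3p (0.969) and miR-150-5p (0.968), the last a lymphocyte miRNA. Between the members r was -0.38 for the 3p strand with miR-128-2-5p, 0.00013 with miR-128-1-5p and 0.036 for the 5p strands with each other.

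Markers of the tissue and of other cells that dissection could bring along were set beside these values. Of 12 neuronal miRNAs, 12 were tested and 0 were called, with a median log2 fold change of -0.05 beside -0.07 over all 474 labels. miR-124-3p had -0.27, miR-9-5p 0.53 and miR-132-3p -0.22 (limma, adjusted p of 0.395, 0.303 and 0.276). The summed level of these 12 was 226362 to 248245 RPM at 2M and 208271 to 260068 RPM at 18M, so neuronal markers were abundant at both ages.

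Among other cells, 0 of 4 oligodendrocyte, 0 of 5 microglial and immune (6 listed), 0 of 4 vessel and 0 of 2 erythrocyte miRNAs tested were called, with median log2 fold changes of -0.14, -0.22, -0.29 and -0.66. The oligodendrocyte sum ran from 7365 to 14776 RPM at 2M and from 8109 to 11707 RPM at 18M, led by miR-338-3p and miR-219a-5p. The microglial and immune sum was 3776 to 4111 RPM at 2M and 2834 to 3402 RPM at 18M. This sum did not overlap between the ages, and 2 of its 5 tested members were higher at 18M. Its most abundant member miR-150-5p, which makes up most of the sum, was at 2852 to 3124 RPM and at 2068 to 2431 RPM (log2 fold change -0.40, limma adjusted p = 0.148), while miR-146a-5p had a log2 fold change of 0.19 (limma adjusted p = 0.544). Single members without overlap were found in several lists, with 3 of 12 neuronal, 1 of 4 oligodendrocyte, 1 of 5 microglial and immune and 2 of 4 vessel miRNAs, beside 24.9% of all 474 labels. The vessel sum was 11390 to 17001 RPM and 10104 to 13607 RPM, led by miR-126a-3p and miR-143-3p. The erythrocyte sum (miR-451a and miR-144-3p) was 2356 to 3498 RPM and 1112 to 2736 RPM.

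Of the lists for neighbouring tissue, 0 of 2 choroid plexus and pituitary (3 listed), 0 of 2 hindbrain (4 listed) and 0 of 5 epithelial and olfactory miRNAs tested were called, with medians of -0.87, -1.59 and -0.11. The choroid plexus and pituitary sum was 2886 to 3654 RPM at 2M and 2668 to 2931 RPM at 18M. Its member miR-375-3p, an endocrine miRNA, was at 1124 RPM in 2M replicate 1, the library with the low miR-128-3p, and at 31.0 to 42.2 RPM in the other 5. The hindbrain sum, led by miR-10a-5p, was 17.4 to 133.8 RPM at 2M and 11.3 to 26.7 RPM at 18M, and the epithelial and olfactory sum, led by miR-200a-3p, was 37770 to 44974 RPM and 28949 to 48013 RPM. The part of these markers in the values of miR-128 was not tested.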

How the data were processed

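The authors demultiplexed and trimmed the reads (Trim Galore per the labels, version not given in the sources used here), collapsed identical reads, removed rare ones, matched the rest to lists of mouse small RNAs with their SPOROS pipeline and deposited RPM per read sequence, with the seed viability as a score in percent. The deposited total column (a signal, the sum over libraries) was not used. All values (100%) were whole multiples of the worth of 1 read (tolerance 0.05 reads), which gave 19272046 to 25080484 reads per library and a floor of 3 reads at 0.120 to 0.156 RPM. No libraries were duplicates, and no per-sample column lay outside the 6 libraries (0). The labels do not say whether the replicates of an age are separate animals, so p-values measure only the spread between libraries, which may be technical. Rows with several labels (308) were counted for each.

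Groups came from the sample titles. Labels and read sequences averaging 10 RPM or more were tested with limma 3.58.1 in R 4.3.3 (trend) on log2(RPM + 1), and ratios, lengths and shares with limma without trend, each with Benjamini-Hochberg adjusted p-values called under 0.05. Changes on this scale understate those of low labels. Intervals are 95%. Single values had exact two-sided permutation tests. edgeR 4.0.16 on recovered reads called 14 of 474 labels and limma 23. Other scalings, pseudocounts (0.1 and 5), filters, DESeq2 1.42.0, left-out libraries and a replicate block were alternatives. In simulated libraries with a common spread for all labels, limma called 200 of 200 labels changed 4-fold and 3 of 274 unchanged ones. This does not measure the power to call smaller changes, such as those of the members. Sequences named were the 4 most abundant of each strand, and neighbours were the labels next in mean RPM. Other pairs were the largest without overlap, and the largest with overlap in each direction. The members, lists and rules were chosen with earlier results of these data known.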

Additional observations from a re-analysis of the deposited data

Results flagged for a closer look

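Besides the labelled sequences, 697 read sequences carried no miRNA label although a second annotation in the table placed them at the miR-128 genes. They were looked at because they are a signal outside the labels that the comparisons used, at a mean of 1017 RPM, far above the floor of 3 reads. Their sum was 710, 1110 and 1210 RPM in the 2M libraries and 945, 1070 and 1056 RPM in the 18M libraries (exact permutation test, p = 1.0). It amounted to 2.30% to 2.42% of the miR-128-3p level in each library. Of these sequences, 423 differed from miR-128-3p by 1 mismatch when aligned from its first base and held 952 RPM. A further 21 matched a hairpin exactly and held 27.7 RPM, all of them pieces of the 3p arm, of which the commonest was AGTGAACCGGTCTCTTT at 9.13 RPM, with 17 nt. Adding these reads would raise the 3p strand by about the same share in every library.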

How the results depend on the processing

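Single libraries were left out in turn. The log2 change of miR-128-3p ran from -0.18 (without 2M replicate 1, where the direction turned) to 0.24. That of miR-128-1-5p ran from -0.062 (without 18M replicate 3, turned, as without 2M replicate 2 at -0.04) to 0.13. That of miR-128-2-5p ran from -0.53 to -0.40 and that of the copy ratio from 0.43 to 0.62, always in the same direction. The copy ratio passed the threshold on leaving out 2M replicate 3 (0.60) or 18M replicate 1 (0.62), and missed it on leaving out any other library. The arm ratio ran from -0.47 to 0.016 (without 2M replicate 1, turned), and the share of miR-128-3p reads with another seed from -0.12 to 0.014 percentage points (without 18M replicate 1, turned). Over read sequences of at least 10 RPM the arm ratio turned to 0.10, a setting that keeps a single 5p sequence. The copy ratio has no value there, because no sequence of miR-128-2-5p reaches 10 RPM.

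Under every other alternative run, those results and the mean length of miR-128-3p kept their direction and their side of the threshold. For miR-128-2-5p the log2 change stayed between -0.49 and -0.37 with adjusted p from 0.0722 (DESeq2) to 0.261, and the copy ratio from the commonest reads alone was 0.66 (limma, adjusted p = 0.216). With pairs of at least 1 RPM, a setting chosen after seeing the data, it had an adjusted p of 0.0852. For the share with another seed over sequences of at least 10 RPM most labels had no spread between libraries. The number of called miR-128 sequences was 0 under all settings, while over all read sequences the calls ran from 0 to 151 of the 3268 to which DESeq2 gave an adjusted p (4.62%) against 12. Over all labels the calls ranged from 0 to 46 against 23, and median-of-ratios scaling moved the median of all labels by 0.10 (log2).

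The replicate numbers did not pair the libraries: same-numbered deviations correlated at -0.17, -0.22 and -0.10, and no library correlated best with its own number. With the replicate block the calls over all labels were 1 against 23, and the copy ratio was 0.51 (limma, adjusted p = 0.134).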
